A study of Mus musculus with 2 samples.

Results

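The interferon-inducible gene families were described in dorsal skin of mice with MC903-induced AD-like dermatitis and of vehicle-treated mice. Members were chosen by symbol: every gene named Ifit, Ifitm, Ifi, Irf, Gbp, Oas or Mx followed directly by a digit, together with Isg15, Isg20, Iigp1, Igtp, Irgm1, Irgm2, Rsad2, Bst2, Usp18 and Ifih1. This rule took 77 of the 33904 genes in the count matrices. It also took Irf2bp1, Irf2bp2 and Irf2bpl, which bind IRF2 and are not themselves interferon regulatory factors. Single-cell RNA-seq with 10x 3′ chemistry gave 1 library for Ctrl and 1 for AD, with no replicate of either. Both came from female C57BL/6J mice aged 7 weeks whose backs had been depilated 24 h before the first application and whose skin was collected on day 10. Ctrl skin received ethanol alone each day for 10 days, and AD skin received MC903 (calcipotriol, a vitamin D analogue) in ethanol at 4.5 nmol per application, on an area of 2 cm by 2 cm. How many mice stand behind a library, and whether they were pooled, is not given in the sources used here.

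The values are UMIs, that is, distinct transcript molecules counted per gene and cell barcode. After the filter stated in the study's methods (200 to 6000 genes and at most 10% mitochondrial UMIs), 11399 cells of 12598 barcodes were kept in Ctrl and 8179 of 8778 in AD, with medians of 7813 and 6330 UMIs. Cells were assigned to classes by marker genes, none of them a member: at least 3 of 8 markers of a class with a UMI, and a lead of at least 2 markers over every other class. Of the kept cells, 87.7% in Ctrl and 78.7% in AD passed a gate. The classes compared most closely were fibroblasts (5886 cells in Ctrl, 4470 in AD), keratinocytes (2098 and 408), macrophages (412 and 194), T cells (589 and 401) and blood endothelial cells (87 and 102). Check markers left out of the gate were present in each, for example Dcn at 12053 and 8609 CPM in fibroblasts, Krt15 at 677 and 806 in keratinocytes and Cd2 at 315 and 418 in T cells. Col1a1 was at 11737 CPM in Ctrl fibroblasts and at 814 in AD fibroblasts, so the 2 fibroblast populations differed in their matrix genes as well. In all, 35 barcodes occurred in both libraries, and 29 of them were among the kept cells of both.

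Interferons are secreted antiviral and immune signals. Type I interferons (IFN-α and IFN-β) act through IFNAR1 and IFNAR2 and assemble the complex ISGF3, which holds IRF9 and binds the interferon-stimulated response element (ISRE). Type II interferon (IFN-γ), made mainly by T cells and NK cells, acts through IFNGR1 and IFNGR2 on genes with a gamma-activated site (GAS), and it induces IRF1, which in turn binds ISRE-like sites. Many genes answer to both. A list of 22 members led by ISGF3 (the type I list: Ifit1, Ifit1bl1, Ifit2, Ifit3, Ifit3b, Oas1a, Oas1g, Oas2, Oas3, Mx1, Mx2, Isg15, Rsad2, Usp18, Irf7, Irf9, Ifih1, Ifi44, Ifi27l2a, Ifi35, Bst2 and Isg20) and a list of 19 led by GAS and IRF1 (the type II list: the Gbp genes with Igtp, Irgm1, Irgm2, Iigp1, Irf1, Irf8, Ifi47 and Ifi30) were written from textbook knowledge. The other 36 members, among them the Ifitm genes and the Ifi200 genes, stand in neither list.

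The promoter letters show what the families share in sequence, which the rule on symbols did not use. RefSeq promoter windows (GRCm38.p6, 250 bases before to 50 bases after the start) were matched to 58 of the 77 members. The ISRE letters GAAANNGAAA, searched on both strands, occurred in windows of 32 of these 58 members (55.2%) and in 3.99% of all 27025 genes with a window. The GAS letters TTCNNNGAA, which read the same on both strands, occurred in 16 of the 58 (27.6%) and in 9.55% of all genes. In the type I list, 11 of 17 matched genes held the ISRE letters and 5 of 17 the GAS letters. In the type II list the counts were 8 and 6 of 12. A match is a stretch of letters and was not tested as a binding site.

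Stretches of 10 members are printed here, each the 150 bases before the start, 5′ to 3′ on the strand of the gene, in lower case with matches to the ISRE or GAS letters in capitals. Rsad2, Ifit1 and Isg15 stand for the type I list, whose level was lower in AD macrophages and fibroblasts. Isg15 has 3 overlapping ISRE matches in 1 run of capitals.
Rsad2 (chr12:26456453-26456602, minus strand): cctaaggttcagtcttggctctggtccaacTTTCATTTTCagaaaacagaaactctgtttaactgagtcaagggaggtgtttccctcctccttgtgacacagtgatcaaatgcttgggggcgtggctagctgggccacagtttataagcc
Ifit1 (chr19:34640739-34640888, plus strand): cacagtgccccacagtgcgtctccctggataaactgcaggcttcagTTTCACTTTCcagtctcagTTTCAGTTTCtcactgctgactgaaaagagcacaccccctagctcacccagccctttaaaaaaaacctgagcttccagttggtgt
Isg15 (chr4:156200819-156200968, minus strand): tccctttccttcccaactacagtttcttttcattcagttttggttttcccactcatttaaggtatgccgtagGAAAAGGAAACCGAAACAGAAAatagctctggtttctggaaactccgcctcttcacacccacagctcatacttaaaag
Irf1, Igtp and Gbp2 stand for the type II list, whose level stayed closer between the libraries in those classes. Irf1 shows a GAS match, Gbp2 an ISRE match, and Igtp a GAS match followed 2 bases later by an ISRE match.
Irf1 (chr11:53769864-53770013, plus strand): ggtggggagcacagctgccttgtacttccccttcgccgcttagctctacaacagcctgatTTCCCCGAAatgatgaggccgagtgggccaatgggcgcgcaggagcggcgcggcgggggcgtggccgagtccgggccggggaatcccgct
Igtp (chr11:58199406-58199555, plus strand): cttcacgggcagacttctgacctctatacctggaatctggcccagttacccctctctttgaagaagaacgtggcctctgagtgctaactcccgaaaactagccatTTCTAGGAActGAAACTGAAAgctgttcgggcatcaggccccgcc
Gbp2 (chr3:142620513-142620662, plus strand): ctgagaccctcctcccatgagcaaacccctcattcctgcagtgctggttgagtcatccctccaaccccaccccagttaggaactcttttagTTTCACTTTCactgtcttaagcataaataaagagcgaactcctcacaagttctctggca
Ifi203, Ifi207 and Ifi205 stand for the Ifi200 genes, whose summed level was higher in AD fibroblasts and lower in AD macrophages. The exact ISRE match found in most of them, GAAATCGAAA, occurred in 6 of the 10 Ifi200 genes with a window and in 16 of all 27025 genes. It was picked as the commonest match in these same genes, so setting it beside all genes is no test. The match printed for Ifi205 has other letters.
Ifi203 (chr1:173942493-173942642, minus strand): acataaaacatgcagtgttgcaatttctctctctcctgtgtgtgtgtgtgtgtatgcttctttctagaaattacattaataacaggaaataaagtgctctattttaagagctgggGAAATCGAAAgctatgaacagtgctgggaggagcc
Ifi207 (chr1:173741810-173741959, minus strand): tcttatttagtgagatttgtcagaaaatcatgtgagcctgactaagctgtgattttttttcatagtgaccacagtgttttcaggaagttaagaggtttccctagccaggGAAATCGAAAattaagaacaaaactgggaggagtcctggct
Ifi205 (chr1:174031756-174031905, minus strand): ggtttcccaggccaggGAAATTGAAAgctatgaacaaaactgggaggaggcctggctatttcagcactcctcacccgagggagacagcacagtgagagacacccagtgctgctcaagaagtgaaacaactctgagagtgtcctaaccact
Ifitm2 stands for the Ifitm genes, of which Ifitm1, Ifitm2 and Ifitm3 were higher in AD T cells. The ISRE letters occurred in windows of 2 of the 7 Ifitm genes, and the GAS letters in 2.
Ifitm2 (chr7:140955962-140956111, minus strand): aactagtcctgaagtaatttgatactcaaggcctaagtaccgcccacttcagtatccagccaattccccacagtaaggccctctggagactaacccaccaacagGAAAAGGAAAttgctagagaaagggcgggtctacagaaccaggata
The letters thus did not separate the lists from each other, since both kinds of match occurred in members of each list. Igtp, Irf1 and Irgm1 lie on chromosome 11 of mm10, and 47 of the 77 members lie in 7 groups of at least 3 members with no gap over 500000 bases between neighbours. The largest of these is the Ifi200 group of 11 genes at chr1:173468485-174031810, followed by 10 Oas genes at chr5:120730333-120921652 (GENCODE release M21 positions). Reads from near-identical neighbours, such as Ifit3 and Ifit3b, Oas1a and Oas1g, or the Ifi200 genes, may have been split or dropped in counting, so single members of such a group are less certain than their sum.

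None of the 77 members was without a UMI over both libraries, and 6 had 20 or fewer (Ifi44l, Gbp2b, Oas1h, Oas1d, Ifi27l2b and Ifitm7). Levels are in CPM: all of a class's cells were added up and each gene's UMIs expressed per 1000000 UMIs of that class. A member entered a comparison with at least 10 CPM in either library and at least 20 UMIs over both, which 62 members reached in at least 1 of 11 classes. With 1 library a group there is no test, and a member is called higher or lower when its CPM, with 1 added, differed at least 2-fold. Log2 ratios are AD over Ctrl with 1 CPM added. Intervals are 95%, exact, cover counting error only and belong to the ratio with nothing added.

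Across the 5 main classes the families did not move together. In macrophages 24 of 55 members that entered were lower in AD and 1 was higher, against 10.3% lower and 7.06% higher of all 8397 genes tested there. In fibroblasts 9 of 41 were lower and 2 higher, against 13.0% lower and 6.85% higher of 9189 genes. In both classes, lower members under 10 CPM in AD entered through Ctrl alone and could not have been called higher. Examples are Ifi44 and Ifit3b in macrophages and Rsad2 in fibroblasts. Ifitm1, the 1 higher member in macrophages, was under 10 CPM in Ctrl and could not have been called lower. In keratinocytes 11 of 25 were higher and 2 lower, against 6.37% higher and 11.3% lower of 9257 genes. Of these 11, Gbp2, Ifi203, Ifi204, Ifi205, Ifi207, Ifitm1, Ifitm10 and Irf7 were under 10 CPM in Ctrl. They entered through the AD library alone and could not have been called lower. The 11 became 5 when cells with more than 1 marker of another class were left out, and 5 at a minimum of 20 CPM. Of the 11, Ifi203, Ifi204, Ifi205 and Ifi207 stood at 2.14% to 3.34% of their AD fibroblast level, beside 1.52% to 2.12% for the fibroblast genes Col1a2, Dcn and Col3a1. T cells had 4 of 42 higher and 5 lower, against 2.99% and 8.35% of 8448 genes, and blood endothelial cells had 3 of 39 higher and 7 lower, against 5.79% and 8.99% of 7751 genes. Of these 3, Ifi205 stood at 1.63% of its AD fibroblast level, beside 4.67% to 13.9% for Col1a2, Dcn and Col3a1. The median log2 ratio of the members was -0.67 in macrophages, 0.04 in fibroblasts, 0.84 in keratinocytes, -0.31 in T cells and -0.37 in blood endothelial cells, while that of all genes tested lay between -0.17 and -0.04.

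**Figure D1:**
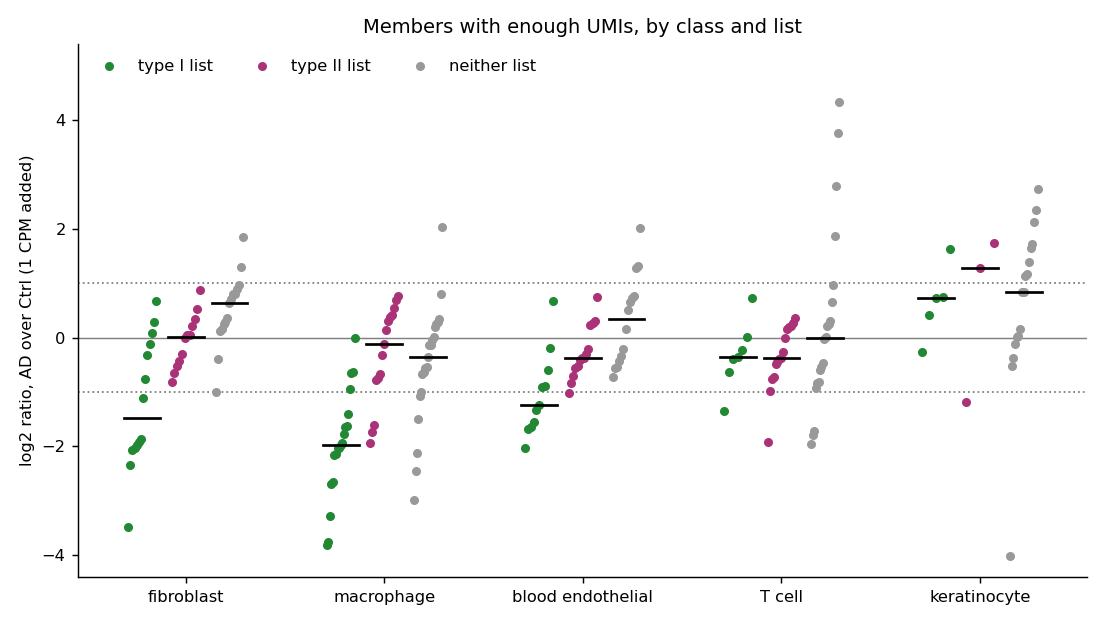
Log2 ratio of AD over Ctrl (vertical axis, 1 CPM added) of each member that entered the comparison, by class (horizontal axis) and by list (green, type I; purple, type II; grey, neither), 1 library a group. Black bars are medians and dotted lines mark 2-fold; the type I list lies mostly below 0 in fibroblasts, macrophages and blood endothelial cells, with medians of -1.48, -1.97 and -1.24, and the highest points are Ifitm1 and Ifitm2 in T cells.

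The type I list was lower in AD in macrophages, fibroblasts and blood endothelial cells. Its summed level in macrophages was 5182 CPM for Ctrl against 1259 for AD (log2 ratio -2.04, -2.11 to -1.97). In fibroblasts it was 1001 and 283 CPM (log2 ratio -1.82, -1.85 to -1.79), and in blood endothelial cells 904 and 416 CPM (log2 ratio -1.12, -1.30 to -0.94). In these classes 15 of 19, 8 of 14 and 6 of 11 members of the list that entered were at least 2-fold lower. None was 2-fold higher. In each class, members under 10 CPM in AD entered through Ctrl alone and could not have been called higher. Examples are Ifi44 and Ifit3b in macrophages, Rsad2 and Irf7 in fibroblasts and Ifit2 in blood endothelial cells. Of all genes tested in these classes, 10.3%, 13.0% and 8.99% were lower and 7.06%, 6.85% and 5.79% higher. T cells differed less (487 and 376 CPM, log2 ratio -0.37, -0.50 to -0.25), and in keratinocytes, the class with the lowest level of the list in Ctrl, the sum was higher in AD (91.2 and 128 CPM, log2 ratio 0.49, 0.37 to 0.61).

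Rsad2 (viperin, an enzyme that makes a chain-terminating nucleotide against viruses) was the most abundant member in Ctrl macrophages, at 1454 CPM, and was at 380.0 CPM in AD macrophages (log2 ratio -1.93, -2.06 to -1.81). Ifit1, whose protein holds viral RNA that lacks the methylated host cap, was at 706 CPM in Ctrl against 72.03 in AD (log2 ratio -3.28, -3.58 to -3.02). Ifih1 (MDA5, a sensor of long double-stranded RNA) was at 572 and 139 CPM (log2 ratio -2.04, -2.26 to -1.84). All of these were several-fold higher in Ctrl macrophages, with intervals that stayed below 0. Differences in the same direction were seen for Ifi27l2a (1224 and 300.1 CPM) and Isg15, a ubiquitin-like modifier (277 and 103 CPM). Ifi44 had 24 UMIs in Ctrl macrophages and 0 in AD, where 3 counts would correspond to 1.8 CPM, and Ifit3b had 38 and 1. The other 4 members of the list that entered in macrophages did not differ 2-fold. Of these, Irf7, the factor that amplifies type I interferon production, was at 79.6 and 40.8 CPM, Irf9, the DNA-binding part of ISGF3, at 59.01 and 37.2 CPM and Oas1a at 13.5 and 8.4 CPM. Ifi35 was level at 21.7 and 21.6 CPM.

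In fibroblasts the list was carried by other genes. Ifi27l2a, a small hydrophobic protein of mitochondria and nuclear envelope, accounted for 470.2 CPM in Ctrl against 41.3 CPM in AD (log2 ratio -3.48, -3.58 to -3.43). Bst2 (tetherin, which holds budding virus at the cell surface) was at 149 and 34.9 CPM (log2 ratio -2.07, -2.19 to -2.01). Both were higher in Ctrl, as were Ifit3, Rsad2, Ifit1, Isg15, Irf7 and Ifi35 at lower levels of 22.4 to 41.0 CPM in Ctrl and 4.70 to 11.9 CPM in AD. Usp18, which removes ISG15 from proteins and blocks IFNAR2 signalling, was level at 16.98 and 15.6 CPM. Ifit2 (21.4 and 26.3 CPM) and Mx2 (9.39 and 15.5 CPM) were somewhat higher in AD, so the list did not move as one even within fibroblasts.

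In blood endothelial cells Bst2, Isg15 and 4 further members of the list were lower. Ifit2 was at 38.8 CPM in Ctrl against 8.75 in AD (log2 ratio -2.03, -3.38 to -1.02), resting on 23 and 10 UMIs. Irf7 was at 40.5 and 12.2 CPM, Irf9 at 84.4 and 27.99 CPM and Ifi44 at 69.2 and 21.0 CPM. Irf7 and Irf9 are the transcription factors through which type I signalling amplifies itself, and both were lower here. Rsad2 was at 164 and 87.5 CPM, a difference under 2-fold.

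**Figure D2:**
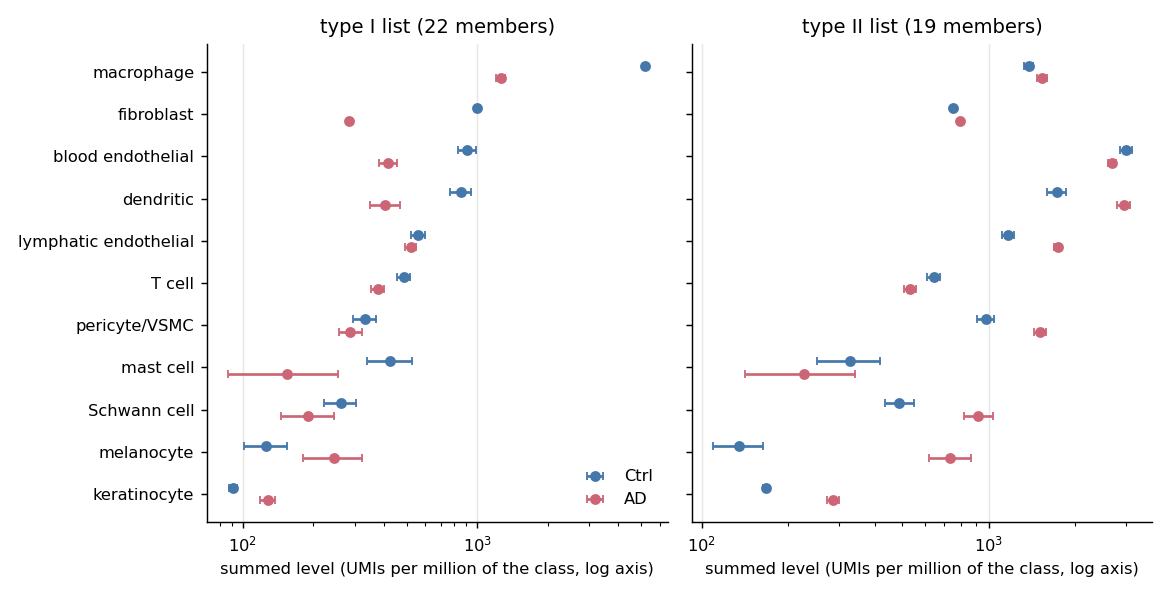
Summed level of the type I list (left) and the type II list (right) by class (vertical axis) in Ctrl (blue) and AD (red), in CPM on a log axis; bars are exact 95% Poisson intervals of the summed UMIs and cover counting error only. The type I level of macrophages was 5182 in Ctrl and 1259 in AD, whereas their type II level was 1376 and 1536.

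The type I molecules were unevenly spread over the macrophages. To compare cells at 1 depth, 2000 UMIs were drawn from each cell, which left out 79 of 412 Ctrl and 27 of 194 AD macrophages. Among the rest, 36.6% of 333 Ctrl macrophages and 7.19% of 167 AD macrophages had at least 10 type I UMIs, with medians of 5 and 1. No type I UMI was found in 28 Ctrl macrophages (8.41%) and 56 AD macrophages (33.5%). In Ctrl, 14.7% of the macrophages held 50% of the type I UMIs, and in AD 7.78% did. In these drawn counts Rsad2 was found in 45.3% (39.9% to 50.9%) of Ctrl and 22.2% (16.1% to 29.2%) of AD macrophages, against 1.32% of 531 Ctrl T cells and 0 of 394 AD T cells, a class in which the gene was at 4.82 and 3.25 CPM. Without the draw the shares were 53.6% and 24.7% of macrophages, at median depths of 4104 and 7574 UMIs. The AD macrophages thus had more UMIs a cell and fewer cells with Rsad2.

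**Figure D3:**
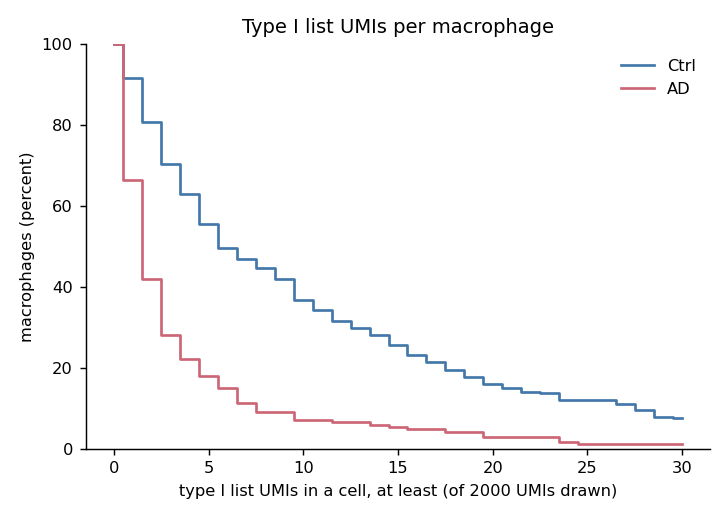
Percent of macrophages (vertical axis) with at least a given number of type I list UMIs (horizontal axis) after 2000 UMIs were drawn from each cell, for Ctrl (blue, 333 cells) and AD (red, 167 cells) of 1 library each. The Ctrl curve lies above the AD curve, with 36.6% against 7.19% of cells at 10 UMIs or more.

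Macrophages with and without a UMI of H2-Ab1, an MHC class II gene, both showed the lower type I level. With H2-Ab1 (325 Ctrl and 87 AD cells) the sum was 4578 and 829 CPM, and without it (87 and 107 cells) it was 7887 and 1984 CPM. The mix of the 2 kinds differed between the libraries, and the type I level was several-fold lower in AD within each kind. The same held for macrophages with a UMI of the mannose receptor gene Mrc1, at 5227 and 1373 CPM. Splits of macrophages by a UMI of a gene depend on depth and on that gene's own level. What part the mix of macrophages takes in the lower type I level was not tested.

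Within fibroblasts the difference depended on the kind of cell. Fibroblasts with a UMI of Cxcl13 (1300 in Ctrl, 2641 in AD) had a type I sum of 2289 CPM in Ctrl and 306 in AD, a log2 ratio of -2.90. Those without one (4586 and 1829 cells) had 543 and 249.8 CPM, a ratio of -1.12. A split by Dpp4, a gene of progenitor-like fibroblasts, gave ratios of -2.02 with and -0.48 without a UMI. The type I level of Ctrl fibroblasts was thus higher in cells with Cxcl13, Dpp4 or Fmo2 (2134 CPM for Fmo2), and in AD the level was between 240.5 and 361 CPM with or without Cxcl13 or Dpp4 and with Fmo2. Such splits by 1 UMI depend on depth and on the gene's own level, and how far a change in the mix of fibroblasts takes part was not tested.

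The type II list differed less between the libraries in fibroblasts and macrophages. Its summed level was 751 and 795 CPM in fibroblasts (log2 ratio 0.08, 0.06 to 0.10) and 1376 and 1536 CPM in macrophages (log2 ratio 0.16, 0.08 to 0.24), the classes in which the type I list was lowest in AD relative to Ctrl. None of 12 members that entered differed 2-fold in fibroblasts, where 6.85% of all genes tested were higher and 13.0% lower. In macrophages 3 of 15 were lower, against 10.3% of all genes. In keratinocytes the list was higher in AD (168 and 286 CPM, log2 ratio 0.77, 0.69 to 0.85), and in T cells it was lower (642 and 532 CPM, log2 ratio -0.27, -0.38 to -0.16). The higher keratinocyte sum was carried by Irf1, while Ifi30 was at least 2-fold lower in AD there. Blood endothelial cells had the highest level of the list in Ctrl, at 2997 CPM, and 2686 CPM in AD. Keratinocytes had the lowest of the 5 main classes in both libraries.

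The guanylate-binding proteins and the immunity-related GTPases attack membranes around intracellular pathogens. In macrophages Gbp2 was at 91.5 CPM in Ctrl against 134 in AD (log2 ratio 0.55, 0.26 to 0.85), and Gbp5 at 67.1 and 115 CPM (log2 ratio 0.76, 0.44 to 1.11). Both were higher in AD by less than 2-fold, beside Rsad2 and Ifit1 that were lower in the same cells. Ifi30, a lysosomal thiol reductase used in antigen presentation, was at 321 and 521 CPM. The GTPases Iigp1 (100.2 and 29.4 CPM) and Irgm2 (25.99 and 6.0 CPM), as well as Ifi47 (43.9 and 13.8 CPM), were the 3 lower members, so the type II list was itself divided in macrophages.

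In fibroblasts Gbp2 was at 76.9 and 48.5 CPM and Gbp5 at 21.9 and 11.9 CPM, both lower in AD by less than 2-fold. Irf1 was the largest part of the type II sum there, at 354 and 412 CPM (log2 ratio 0.22, 0.19 to 0.25), and stayed nearly level. Next in level were Iigp1 (79.3 and 101 CPM), Gbp2 and Gbp7 (62.8 and 64.8 CPM). In keratinocytes Irf1 was at 90.3 and 221 CPM (log2 ratio 1.28, 1.19 to 1.39) and Gbp2 at 3.34 and 13.4 CPM (log2 ratio 1.73, 1.56 to 2.45), both higher in AD. The Gbp2 difference in keratinocytes was reversed (-0.23) when cells with more than 1 marker of another class were left out. Iigp1 was the largest part of the type II sum of blood endothelial cells, at 1288 and 1508 CPM (log2 ratio 0.23, 0.10 to 0.35), and was at least 4-fold higher there than in lymphatic endothelial cells, the next class, in both libraries.

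The Ifi200 genes encode PYHIN proteins, a family of cytosolic and nuclear DNA-binding proteins that includes sensors of foreign DNA. The 11 genes lie in 1 group on chromosome 1, and 5 of them entered in fibroblasts and 9 in macrophages. In fibroblasts and macrophages their sums differed in opposite directions. In fibroblasts 1 gene (Ifi207) was at least 2-fold higher (6.85% of all genes tested), and in macrophages 6 were lower (10.3%). Their summed level was 1505 CPM in Ctrl against 3138 CPM in AD fibroblasts (log2 ratio 1.06, 1.05 to 1.07), and 1769.8 and 915 CPM in macrophages (log2 ratio -0.95, -1.04 to -0.86). Ifi207 was the member with the highest ratio in fibroblasts, at 237 and 863 CPM (log2 ratio 1.86, 1.83 to 1.89), while in macrophages it was at 718 and 357 CPM (log2 ratio -1.01, -1.15 to -0.87). Ifi203 was at 236 and 464 CPM in fibroblasts and at 298 and 141 CPM in macrophages. The AD fibroblasts were above the AD macrophages for both genes, and the Ctrl fibroblasts below the Ctrl macrophages. Fibroblasts held 98.9% of the gated UMIs of Ifi205 in Ctrl and 98.6% in AD, where it was at 586 and 1023 CPM, while in macrophages it stayed near level at 33.02 and 30.01 CPM.

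The fibroblast difference was small within the cells that had Cxcl13, apart from Ifi207. In fibroblasts with a Cxcl13 UMI, Ifi205 was at 1420.4 CPM in Ctrl against 1267 in AD, Ifi204 at 672 and 615 CPM and Ifi203 at 588 and 559 CPM. These were a little lower in AD. Ifi207 was higher in AD there, at 574 and 1052 CPM. In fibroblasts without a Cxcl13 UMI the 5 Ifi200 genes that entered were each at least 2-fold higher in AD, with Ifi205 at 289 and 677 CPM and Ifi207 at 117 and 596 CPM. In Ctrl, then, both the Ifi200 genes and the type I list were higher in the fibroblasts with Cxcl13, and in AD the type I list was low in these cells while Ifi203, Ifi204 and Ifi205 stood near their Ctrl levels.

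**Figure D4:**
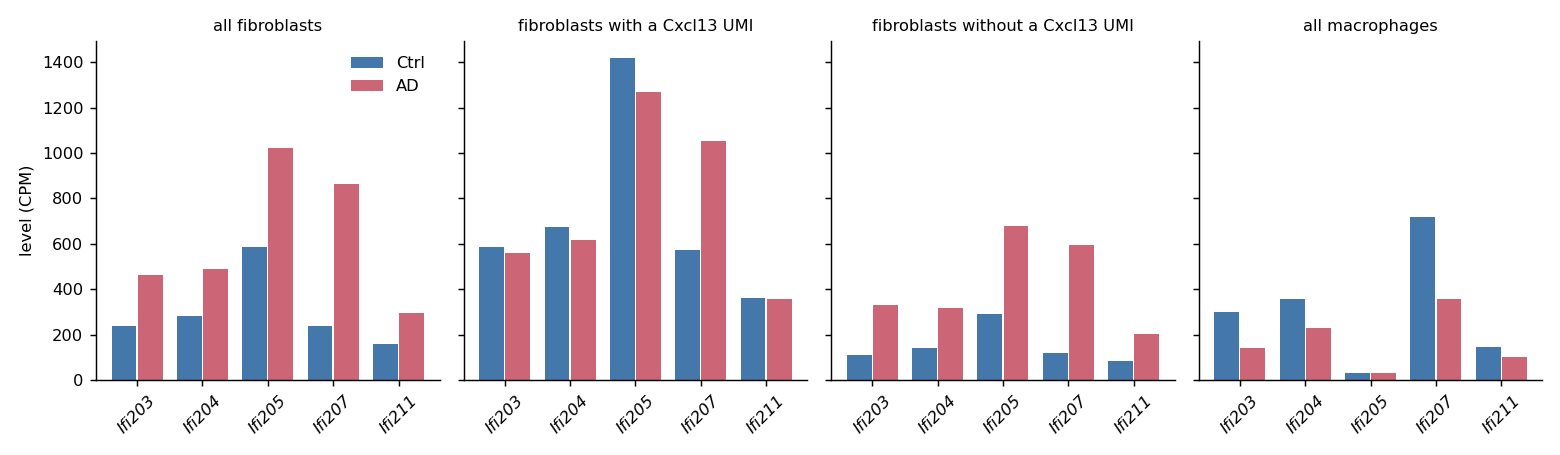
Level in CPM (vertical axis) of 5 Ifi200 genes (horizontal axis) in Ctrl (blue bars) and AD (red bars), 1 library each, in all fibroblasts, in fibroblasts with and without a Cxcl13 UMI, and in macrophages. In fibroblasts with a Cxcl13 UMI 4 of the genes are close to level and Ifi207 is at 574 and 1052, and in macrophages Ifi207 is at 718 and 357.

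Ifi205 and Ifi207 were also counted as higher in AD in other classes, at low levels. In keratinocytes Ifi207 was at 3.47 and 28.8 CPM (log2 ratio 2.74, 2.70 to 3.42) and Ifi205 at 5.95 and 21.9 CPM. The AD keratinocyte level was 3.34% of the AD fibroblast level for Ifi207 and 2.14% for Ifi205, while the fibroblast genes Col1a2, Dcn and Col3a1 stood at 1.52% to 2.12% of their fibroblast level in the same keratinocytes. In AD T cells Ifi207 stood at 2.14% and those fibroblast genes at 0.959% to 1.67%, and in AD lymphatic endothelial cells Ifi207 stood at 7.38% and they at 1.77% to 6.26%. Ifi207 in these classes thus stood just above the range of the fibroblast genes, and the part of free fibroblast RNA in its values was not tested. Ifi203 in T cells was far above that range, at 25.9% of the AD fibroblast level, with 215 and 120.3 CPM, and Ifi209 (50.6 and 12.3 CPM), Ifi213 and Ifi206 were lower in AD.

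The Ifitm proteins sit in membranes and hinder the entry of enveloped viruses. Ifitm1, Ifitm2 and Ifitm3 were higher in AD in T cells by more than any other member that entered in that class. Ifitm1 was at 6.27 CPM in Ctrl T cells and 145 CPM in AD T cells (log2 ratio 4.33, 3.74 to 5.45), Ifitm2 at 42.4 and 587 CPM (log2 ratio 3.76, 3.48 to 4.12) and Ifitm3 at 32.8 and 231 CPM (log2 ratio 2.78, 2.46 to 3.20). The type I and type II lists were both lower in AD in the T cell class, but not in each kind of T cell. With a Trdc UMI, type I was level (305 and 301 CPM, log2 ratio -0.02, -0.34 to 0.30). Type II was higher in AD in those cells (377 and 506 CPM, log2 ratio 0.42, 0.16 to 0.69). Without a Trdc UMI both lists were lower, with log2 ratios of -0.56 and -0.53. T cells with a UMI of Cd4 (116 in Ctrl, 154 in AD), Cd8a (92 and 44), Gata3 (279 and 259) or Trdc (198 and 95) each showed the higher Ifitm levels. Ifitm2, for example, was at 54.5 and 822 CPM with Cd4, at 28.8 and 447 with Cd8a and at 46.4 and 377 with Trdc. The Ifitm2 level of AD T cells was 81.7% of that of AD fibroblasts, far above the 0.959% to 1.67% at which the fibroblast genes stood in these T cells.

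Ifitm genes were higher in AD in other classes as well. Ifitm3 in keratinocytes was at 127 and 655 CPM (log2 ratio 2.35, 2.30 to 2.43), in lymphatic endothelial cells at 2633 and 4862 CPM and in pericytes and vascular smooth muscle at 839 and 1728 CPM. The keratinocyte libraries differed in their mix, since 1260 of 2098 Ctrl cells but 382 of 408 AD cells had more Krt14 than Krt10 UMIs, Krt14 marking basal and Krt10 suprabasal cells. Among those with more Krt14, Ifitm3 was at 195 and 665 CPM and remained more than 3-fold higher in AD. Ifitm2 in lymphatic endothelial cells was at 989 and 3655 CPM (log2 ratio 1.88, 1.80 to 1.97), and Ifitm1 in pericytes and vascular smooth muscle was at 94.96 and 1268 CPM (log2 ratio 3.72, 3.43 to 4.06). In fibroblasts and macrophages Ifitm2 and Ifitm3 stayed within 1.5-fold between the libraries, with Ifitm3 at 1011 and 1133 CPM and at 887 and 694 CPM. Ifitm1 was higher in AD in both, at 55.2 and 138 CPM in fibroblasts (log2 ratio 1.30, 1.25 to 1.38) and, as the 1 higher member of macrophages, at 7.58 and 34.2 CPM there (log2 ratio 2.04, 1.31 to 3.13). Ifitm1 in blood endothelial cells (64.1 and 161 CPM) was higher in AD with the main gate and lower (-0.35) when cells with more than 1 marker of another class were left out.

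**Figure D5:**
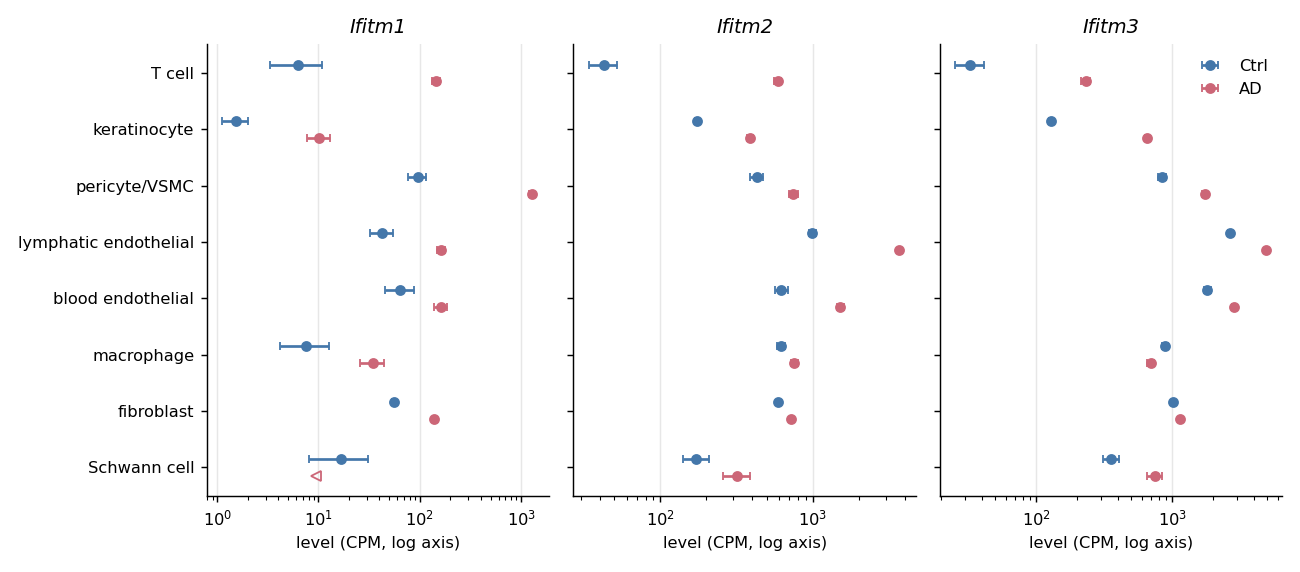
Level of Ifitm1, Ifitm2 and Ifitm3 (horizontal axes, CPM on log axes) by class (vertical axis) in Ctrl (blue) and AD (red), 1 library each, with exact 95% Poisson intervals that cover counting error only; the open triangle marks 0 UMIs and stands at the level of 3 UMIs. T cells show the widest gaps, with Ifitm1 at 6.27 and 145, and fibroblasts and macrophages are close to level for Ifitm3.

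Some classes reached 25 cells in 1 library alone. AD basophils (47 cells, against 9 in Ctrl) had Ifitm1 at 5829 CPM and Ifitm2 at 1957 CPM, and AD neutrophils (49 cells, against 5) had Ifitm2 at 3915, Ifitm1 at 2500.3 and Ifitm6 at 487 CPM. AD adipocytes (99 cells, 0 in Ctrl) had Ifi27l2a at 2655 CPM and held 61.8% of the gated UMIs of this gene in AD, while fibroblasts held 87.3% of them in Ctrl. The class with most of the Ifi27l2a molecules thus changed between the libraries. Ctrl NK cells (43 cells, against 13 in AD) had Irf8 at 887 CPM.

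The interferon regulatory factors are transcription factors, and several were at their highest in 1 or a few classes. Irf5, a factor of Toll-like receptor signalling, was at 85.0 and 82.2 CPM in macrophages and 74.3 and 179.9 CPM in dendritic cells. Irf8, which directs dendritic cell and monocyte development, was at 575 and 1362 CPM in dendritic cells (log2 ratio 1.24, 1.02 to 1.47) and at 145 and 179 CPM in macrophages. Irf3, the factor that RNA and DNA sensing switches on by phosphorylation, stayed between 20.6 and 40.5 CPM in the 5 main classes of both libraries. Irf7 did not keep to 1 direction, at 3.69 and 13.6 CPM in keratinocytes, 39.04 and 9.62 CPM in fibroblasts and 12.5 and 12.6 CPM in T cells.

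The Oas enzymes make the second messenger that activates RNase L. Oas1f departed from its family: it was at 55.5 CPM in Ctrl keratinocytes and 2.47 CPM in AD keratinocytes (log2 ratio -4.02, -5.36 to -3.74), and keratinocytes held 96.1% of its gated UMIs in Ctrl. In Ctrl it was at 109 CPM in keratinocytes with at least as many Krt10 as Krt14 UMIs and at 12.8 CPM in the others. In AD the first kind numbered 26 cells, against 838 in Ctrl, and had it at 73.2 CPM, and the others had it at 0.182 CPM. These AD levels rest on 14 UMIs in all. In the first kind the difference was under 2-fold, with 26 AD cells, and in the others Oas1f was far lower in AD. The first kind, which had the higher level, was nearly missing from the AD library. What part the mix of keratinocytes takes in the difference was not tested. The other Oas genes were low outside macrophages, where Oas2 was at 37.4 and 11.4 CPM. Ifi202b was likewise a keratinocyte gene, at 20.6 and 37.5 CPM, although it lies among the Ifi200 genes.

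Of the 6 smaller classes, all but mast cells had more members higher than lower. Lymphatic endothelial cells had 13 of 41 higher (4.87% of all genes tested) and 3 lower (8.79%), and pericytes and vascular smooth muscle had 13 of 36 higher (6.9%) and 2 lower (9.8%). In the smaller classes, higher members under 10 CPM in Ctrl entered through AD alone and could not have been called lower. Examples are Rsad2 in lymphatic endothelial cells and Gbp5 in pericytes and vascular smooth muscle. Of the 13 in lymphatic endothelial cells, 5 were Ifi200 genes at 5.87% to 8.11% of their AD fibroblast level, beside 1.77% to 6.26% for Col1a2, Dcn and Col3a1. In pericytes and vascular smooth muscle Ifi204, Ifi207 and Ifi211 stood at 5.90% to 12.4%, and those fibroblast genes at 4.31% to 84.2%. Irf1 in lymphatic endothelial cells was at 374 and 781 CPM (log2 ratio 1.06, 0.92 to 1.21), and Gbp2 and Gbp5 in pericytes and vascular smooth muscle were at 37.2 and 91.6 CPM and at 8.26 and 49.5 CPM. Their type II sums were 1165 and 1736 CPM and 974 and 1512 CPM, while their type I sums differed less (559 and 519.8 CPM, 331 and 288 CPM). Type I members went both ways in lymphatic endothelial cells: Ifit1, Ifit2, Isg15 (51.6 and 109.6 CPM) and Rsad2 (5.65 and 27.1 CPM) were higher in AD, and Bst2 (216 and 99.4 CPM) and Ifi44 were lower. In pericytes and vascular smooth muscle 2 type I members were higher (Ifit2 and Isg20) and 2 lower (Isg15 and Ifi27l2a). Dendritic cells (49 and 28 cells, with the MHC class II gene H2-Ab1 at 6552 and 842 CPM) had 10 of 27 higher (12.6%) and 8 lower (15.0%). Higher were Irf8, Irf1 (109 and 642 CPM), Gbp5 (24.8 and 205 CPM) and Irf4 among others. The type I members Isg15 and Ifi35 were also higher. Lower were Ifi27l2a (188 and 9.11 CPM), Bst2 and Rsad2 among others. Schwann cells had 4 of 18 higher (5.91%) and 1 lower (12.6%), melanocytes 8 of 17 higher (15.7%) and 1 lower (20.5%), and mast cells 1 of 7 higher (8.3%) and 1 lower (14.5%). In AD melanocytes fibroblast genes stood at 1.69% to 9.29% of their fibroblast level, and Ifi205 and Ifi207 at 13.9% and 30.1%. In AD Schwann cells the fibroblast genes stood at 5.70% to 19.9%, and Ifi205, 1 of the 4 higher members, at 7.03%.

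The genes that make, receive and brake the signal were counted from lists of pathway genes. Of 11 interferon genes, Ifnb1 alone entered in macrophages, at 50.9 CPM in Ctrl against 6.0 in AD (94 and 10 UMIs), found in 45 of 412 and 4 of 194 cells. After the draw of 2000 UMIs its shares were 6.31% and 1.20% of macrophages and 0 of T cells in both libraries, a class that should lack this gene. Ifng alone entered in T cells, at 132 and 56.4 CPM, in 15.8% and 5.99% of cells and, after the draw of 2000 UMIs, in 12.1% and 3.30%, with 0 UMIs in macrophages of both libraries. Ifnb1 was thus lower in AD macrophages and Ifng in AD T cells. Ctrl NK cells (43 cells) had Ifng at 614 CPM, on 153 UMIs, and the 13 AD NK cells were too few to compare. None of the 5 receptor genes that entered differed 2-fold in fibroblasts, macrophages or T cells. Of all genes tested there, 6.85%, 7.06% and 2.99% were higher and 13.0%, 10.3% and 8.35% lower, so 5 genes are too few to stand apart. Ifngr1 was at 149.8 and 199 CPM and Ifnar2 at 63.3 and 75.5 CPM in fibroblasts. The brake Socs3, which many cytokines induce, was at 507 and 2581 CPM in fibroblasts and 228 and 848 CPM in macrophages, and was higher in AD in all 5 main classes, by less than 2-fold in blood endothelial cells.

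Of 15 further type I responsive genes, all 15 entered in macrophages and 12 were lower, against 10.3% of all genes tested there, among them Oasl1 (614 and 91.2 CPM) and Cmpk2 (57.4 and 9.0 CPM), the neighbour of Rsad2. Of these 12, Cmpk2 and Ddx60 were under 10 CPM in AD, entered through Ctrl alone and could not have been called higher. In fibroblasts 5 of 14 were lower, against 13.0% of all genes, and none higher. Of 14 further type II responsive genes, 2 of 10 were lower in macrophages (10.3% of all genes) and 1 was higher (7.06%): Cxcl9 (35.2 and 3.6 CPM) and Cxcl10 (770.4 and 293 CPM) were lower and Cd274, which encodes PD-L1, was higher (73.1 and 303 CPM). In fibroblasts 4 of 8 were lower (13.0% of all genes) and none higher, with Cxcl9 at 10.1 and 1.16 CPM and the immunoproteasome gene Psmb8 at 68.6 and 25.7 CPM, while Cxcl10 stayed within 2-fold at 157 and 190.4 CPM. Among the 12 type II members that entered in fibroblasts, none differed 2-fold. Of 9 sensors of nucleic acids, 3 of 8 were lower in macrophages (10.3% of all genes), among them Ddx58 (RIG-I) at 66.05 and 18.01 CPM.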

How the data were processed

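Cells of dorsal skin, released by collagenase digestion and depleted of dead cells, had been made into 1 10x 3′ library for Ctrl and 1 for AD. The deposited values are raw UMI counts per gene and cell barcode, made by the authors with Cell Ranger on mm10. The file headers name version 5.0.0 and the submitters' processing notes 3.1.0 (with Seurat 5.0), and the study's methods give other versions of both, so the version used is uncertain. Such counts use reads mapped to 1 place, which lowers genes with near-identical copies.

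The filter and the marker gate were applied to these counts, with no doublet caller: a gated cell had to lead by 2 markers, and a variant allowed at most 1 marker of another list. UMIs were summed per class and library and scaled to CPM. With 1 library a group no test was made, and any difference between mice, libraries or dissociations cannot be told apart from the treatment. Intervals are exact Poisson for levels, exact conditional binomial for ratios and Clopper-Pearson for shares, at 95%. A count of 0 was given a limit of 3 counts. Members named singly were, per main class, the 4 highest and 4 lowest ratios, the highest member of each family by class, and members at least 4-fold above the next class. Other genes named were chosen after their values were seen, to describe a family or list. The members and lists were chosen with earlier results of these data known. The steps were tested on simulated data with Python 3.11.15, numpy 2.4.6, scipy 1.17.1 and pandas 2.3.3. The deposited libraries held 125184653 UMIs in Ctrl and 76106062 in AD. Alternatives were other gates, cells, scalings, depths and thresholds. Results for some genes are not reported here.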

Additional observations from a re-analysis of the deposited data

Results flagged for a closer look

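Several members differed in opposite directions between classes, and none of these differences between classes was tested, since each group has 1 library. Ifi207 had a log2 ratio of AD over Ctrl of 1.86 in fibroblasts, 2.74 in keratinocytes and 1.86 in T cells, but of -1.01 in macrophages. Ifi203 had 1.17 in keratinocytes and -1.07 in macrophages. For Ifi207 in keratinocytes and T cells, the AD level was 3.34% and 2.14% of that of AD fibroblasts, beside 1.52% to 2.12% and 0.959% to 1.67% for Col1a2, Dcn and Col3a1. Ifi203 in keratinocytes stood at 2.13% of the fibroblast level in Ctrl, where the fibroblast genes were at 1.18% to 3.39%, and at 2.71% in AD. Irf7 had a log2 ratio of 1.64 in keratinocytes, -1.91 in fibroblasts and -1.65 in blood endothelial cells.

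The cells that no gate took, 1402 in Ctrl and 1740 in AD, stand in none of the comparisons. In them the type II list stood at 802 CPM for Ctrl against 948 for AD, a log2 ratio of 0.24 (0.19 to 0.29), and the type I list was at 643 and 366 CPM, a ratio of -0.81 (-0.88 to -0.75).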

How the results depend on the processing

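No paired analysis was possible because each group has 1 library. The type I list stayed lower in AD in macrophages, fibroblasts and blood endothelial cells, and higher in keratinocytes, under each planned or added alternative in which it was recomputed. In T cells it stayed lower too, except that those with a Trdc UMI were near level, at a log2 ratio of -0.02. Of 352 ratios of singly named members under alternatives, 242 moved by less than their counting interval, 108 moved by more and 2 reversed; the cause was not tested. Ratios below are log2.

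With a stricter gate (4 markers, a lead of 3), 2 members were higher in macrophages and 1 in blood endothelial cells, with type I at -1.36 there. With a looser gate (2 markers, a lead of 1), 2 were higher in macrophages and 5 in blood endothelial cells, and macrophages had type I at -1.76 and type II at 0.32. With at most 1 marker of another list, 4 members were higher in fibroblasts, 5 in keratinocytes and 3 in macrophages. Type I was then 0.35 in keratinocytes, -1.75 in macrophages, -0.54 in T cells and -1.57 in blood endothelial cells, and type II -0.094 in T cells and -0.47 in blood endothelial cells. Gbp2 in keratinocytes reversed to -0.23 and Ifitm1 in blood endothelial cells to -0.35.

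With all deposited barcodes, type II was 0.048 in fibroblasts, type I 0.25 and type II 0.62 in keratinocytes with 1 member lower, and type I -2.17 in macrophages. As a mean of each cell's CPM, 4 members were higher in fibroblasts and 13 lower in blood endothelial cells, type I was -1.65 in fibroblasts, 0.32 in keratinocytes and -1.80 in macrophages, and type II -0.42 in blood endothelial cells. With 2000 UMIs a cell, 6 members were higher in fibroblasts and 0 in macrophages. Type I was then -1.70 in fibroblasts, 0.20 in keratinocytes, -1.81 in macrophages and -1.44 in blood endothelial cells, and type II 0.12, 0.88 (keratinocytes), -0.16 (T cells) and -0.32 (blood endothelial cells). Centred on the median gene, type I was -1.73 in fibroblasts, 0.62 in keratinocytes and -0.20 in T cells, and type II 0.17, 0.91, -0.10 and, in blood endothelial cells, -0.032.

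At 20 CPM or more, 5 members were higher in keratinocytes and 3 lower in T cells. With no minimum, 19 were lower in fibroblasts, 4 in keratinocytes, 11 in T cells and 15 in blood endothelial cells, where 5 were higher. At 1.5-fold, 10 were higher in fibroblasts, 4 in macrophages, 7 in T cells and 8 in blood endothelial cells, and 13 were lower in T cells and 13 in blood endothelial cells. Among subsets chosen after seeing the data, fibroblasts with Dpp4 had type I at -2.02 and type II reversed at -0.0006. Keratinocytes with more Krt14 than Krt10 had 1 member lower and type I at 0.33. Macrophages with Mrc1 had type I at -1.93. T cells without Trdc had 10 members lower, type I at -0.56 and type II at -0.53. Those with Trdc had type I near level at -0.02 and type II reversed at 0.42.

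Shallow classes limit single members: dendritic, melanocyte and mast cells had 28 to 112 cells a library.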
